A study of Mus musculus with 6 samples.

Results

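Chemokines and their receptors were examined in femurs of mice that express Wnt7b from bone cells and in femurs of control littermates. The members were every mouse gene whose symbol names a CC, CXC, XC or CX3C chemokine (Ccl, Cxcl, Xcl1, Cx3cl1), a conventional receptor (Ccr, Cxcr, Xcr1, Cx3cr1) or an atypical receptor (Ackr). This rule found 59 genes among 22824 rows per library, 38 ligands and 21 receptors. In the OE group, Cre under a 9.6kb DMP1 sequence switched on a Wnt7b allele at the R26 locus (9.6kb DMP1-Cre; R26-Wnt7b), and per the labels all OE mice were homozygous. The Ctrl group held littermates with the R26-Wnt7b allele and no Cre, so both groups carry that allele on a C57BL/6 background. This Dmp1 sequence is active mainly in osteocytes and mature osteoblasts. RNA of 3 OE and 3 Ctrl femurs was sequenced, and the sources used here do not give age or sex. The labels do not say that each library came from its own animal, so p-values cover only the spread among these samples, some of which may be technical.

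Chemokines are small secreted proteins that steer cells along concentration gradients by binding receptors coupled to inhibitory G proteins. Atypical receptors bind chemokines without that G-protein signal and remove them from the tissue. In bone marrow, CXCL12 from stromal cells holds blood stem cells, B-cell precursors and neutrophils that carry CXCR4, while CXCR2 and its ligands draw mature neutrophils into the blood and CCR2 does the same for monocytes.

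The libraries did not fall cleanly into their labelled groups. Wnt7b stood at 2.49, 0.661 and 0.295 FPKM in OE 1, 2 and 3, against 0.00833 in Ctrl 2, a listed 0 in Ctrl 3 and 0.909 in the one labelled Ctrl 1. FPKM is fragments scaled to transcript length and to the mapped total of the library, and every level below is in that unit. The library labelled Ctrl 1 thus lay inside the OE range for the gene that defines the groups, and it is named that way throughout. The femurs are labelled as free of marrow and cartilage, yet the 20 neutrophil markers summed to 64374 to 177946 FPKM in each library. The sum of 14 osteoblast and osteocyte markers was 7136, 6560 and 4259 FPKM in OE 1, 2 and 3. It was 6115 in the library labelled Ctrl 1 and only 497 and 419 in Ctrl 2 and Ctrl 3, and the cartilage sum was likewise 33.2 and 37.6 in those 2 libraries against 375 to 706 elsewhere. OE 3 stood apart in blood cells, with the erythroid sum at 45821 FPKM against 1477 to 10240.1 elsewhere and the neutrophil sum at its lowest. In such bulk tissue, fewer cells of a type and less RNA per cell cannot be told apart.

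Most of the family was weakly expressed in these femurs, and a handful of genes carried nearly all of its RNA. Among the 59 members, 14 averaged at least 5 FPKM in OE or in Ctrl, 20 averaged 1 to 5, and 25 averaged under 1 in both groups, of which 6 were listed at 0 in every library. Ligand values summed to 317, 463 and 675 FPKM in OE 1, 2 and 3, against 569 in Ctrl 2, 497 in Ctrl 3 and 372 in the one labelled Ctrl 1. Cxcl12 alone made up 47.0% to 62.3% of that sum and Ccl6 another 19.9% to 31.5%. Receptor values summed to 420.4, 488 and 310.1 FPKM in OE, against 449, 544 and 549.8 in Ctrl. Cxcr4, Cxcr2, Ccr2 and Ccr1 together held 86.0% to 92.9% of the receptor sum. The family as a whole was 0.112% to 0.169% of all FPKM in a library.

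**Figure D1:**
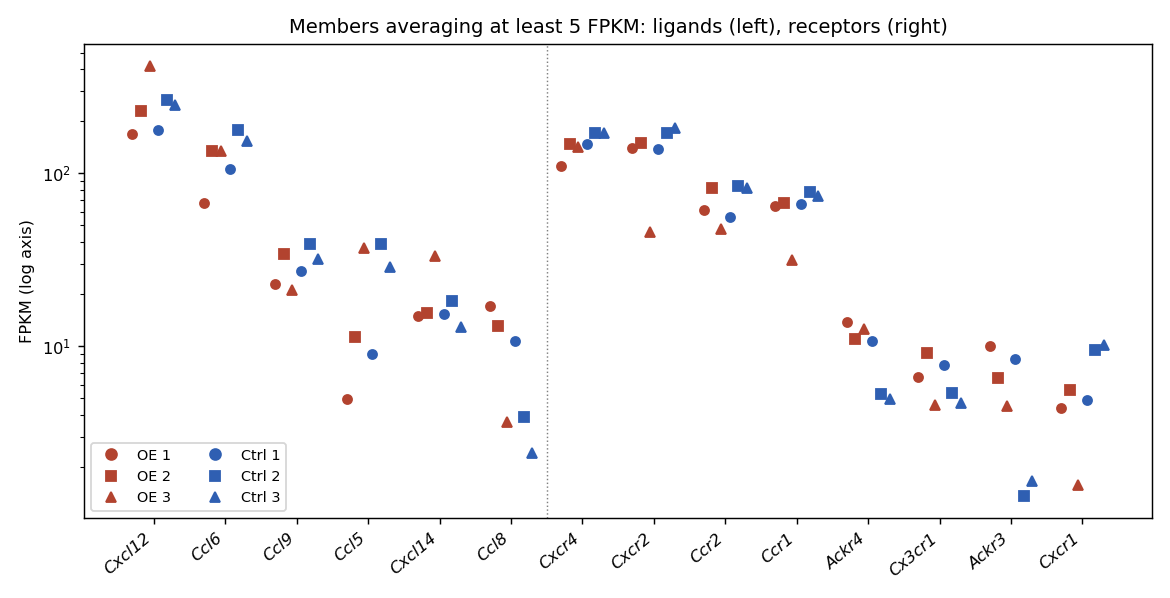
FPKM on a log axis for the 14 members averaging at least 5 FPKM in OE or in Ctrl, 6 ligands left of the dotted line and 8 receptors right of it, 1 point per library. Cxcl12 is the highest in every library, OE 3 is low for Cxcr2 at 45.8 FPKM, and Ctrl 2 and Ctrl 3 are low for Ackr3 at 1.35 and 1.65 FPKM.

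Whether OE differed from Ctrl was tested gene by gene with limma on log2(FPKM + 1), over the 12177 genes that reached 1 FPKM in at least 3 libraries. Of the 59 members, 29 passed that filter (16 ligands and 13 receptors), and a gene low everywhere could not be tested. No member passed an adjusted p of 0.05, and neither did any other gene, so 0% of all genes tested were called with all 6 libraries. At an unadjusted p under 0.05, limma gave 2 of the 29 members, or 6.90%, against 8.20% of all genes (999 genes), and limma without a trend also called 0. The median difference, OE minus Ctrl, was -0.05 over the members and -0.04 over all genes tested, with 13 of the 29 members and 43.7% of all genes positive. Ackr4 was the only tested member with every OE value above every Ctrl value, 1 of 29 where 4.59% of all genes lay that way. None lay below in the same sense, where 8.97% of all genes did.

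Without the library labelled Ctrl 1, limma called 597 genes, or 4.90% of those tested, 4.25% higher and 0.649% lower in OE. Among the 29 members it called 2, both higher in OE and both atypical receptors, Ackr3 and Ackr4, which is 6.90% of the members. In that comparison 6 of 29 members had all OE values above Ctrl 2 and Ctrl 3, or 20.7%, against 18.3% of all genes. Another 9 of 29 lay below, or 31.0%, against 18.6% of all genes. The members' share of calls, 6.90% against 4.90%, rests on 2 members. Their share lying below was larger than that of all genes, and these differences between shares were not tested. The account below follows the genes by the cells that usually make them. Those source labels are textbook knowledge used to order the text, not a measurement.

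**Figure D2:**
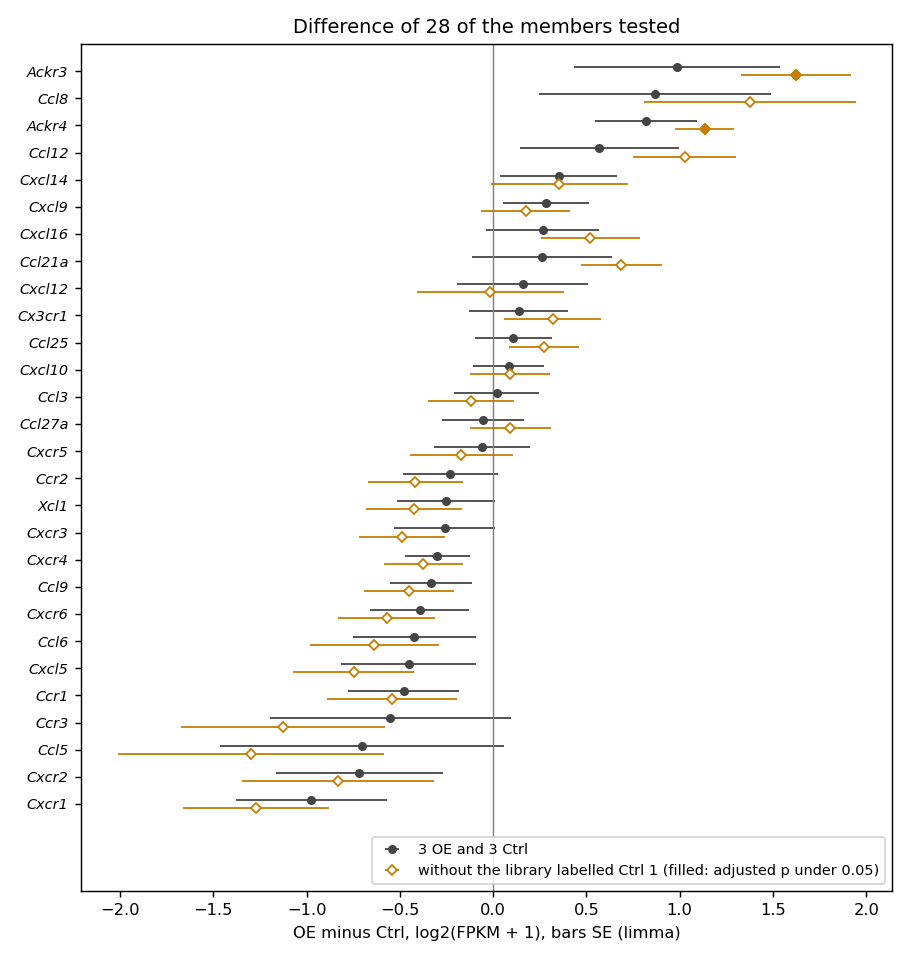
Difference OE minus Ctrl in log2(FPKM + 1) with its SE from limma for 28 of the 29 members tested, filled circles with all 6 libraries and diamonds without the library labelled Ctrl 1. Filled diamonds mark Ackr3 and Ackr4, the 2 members with an adjusted p under 0.05 without that library, and no circle passes.

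Ackr3 and Ackr4, which clear chemokines, were the members that passed a test without the library labelled Ctrl 1. ACKR3 binds CXCL12 and CXCL11 and takes them up, while ACKR4 clears CCL19, CCL21 and CCL25. Ackr3 (chromosome 1, 90203980 to 90216751, plus strand, GRCm38) stood at 10.02, 6.51 and 4.52 FPKM in OE 1, 2 and 3, against 1.35 in Ctrl 2, 1.65 in Ctrl 3 and 8.43 in the one labelled Ctrl 1. The groups therefore overlapped through the library labelled Ctrl 1, and the difference of 0.99 (SE 0.55) did not pass (limma adjusted p = 0.563). Without that library Ackr3 rose in OE by 1.62 (SE 0.30, limma adjusted p = 0.0343), and without Ctrl 2 the difference was 0.62.

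Ackr4 (chromosome 9, 104084157 to 104126933, minus strand) stood at 13.9, 11.02 and 12.5 FPKM in OE, against 5.32 in Ctrl 2, 4.92 in Ctrl 3 and 10.7 in the one labelled Ctrl 1. All OE values were above all Ctrl values, but the library labelled Ctrl 1 lay just under the lowest OE library. The difference was 0.82 (SE 0.27, limma adjusted p = 0.554) with all libraries and 1.13 (SE 0.16, limma adjusted p = 0.0149) without that library. Ackr4 overlaps Acad11 on the opposite strand, and the sources used here do not give the strand setting of the counting, so reads of the pair may not be told apart. The OE mean was 4.67 times the mean of Ctrl 2 and Ctrl 3 for Ackr3 and 2.44 times for Ackr4. The same ratio was 13.1 for the osteoblast and osteocyte sum, 15.8 for cartilage, 5.20 for skeletal muscle, 4.90 for periosteum and tendon, and 1.22 for endothelium. It was 2.09 for osteoclasts and 1.175 for marrow stroma, and 3.33 for B cells and 2.15 for erythroid cells, both highest in OE 3. The remaining lists ran from 0.260 for eosinophil, basophil and mast cell markers to 1.21 for adipocytes. The part of these tissue markers in the receptor differences was not tested.

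The promoter windows of 4 members that were lowest in Ctrl 2, Ctrl 3 or both are printed here, Ackr3 and Ackr4 because they passed the test without the library labelled Ctrl 1, and Ccl8 and Ccl12 because they are near neighbours and both were low in OE 3, Ctrl 2 and Ctrl 3. Each runs from 250 bases before to 50 bases after the RefSeq start on GRCm38.p6, read 5′ to 3′ on the gene's strand, and capitals mark the TATA-box letters TATAAA or their reverse complement TTTATA. The 300 bases are chr1:90203730-90204029 (plus strand) for Ackr3, chr9:104126594-104126893 (minus strand) for Ackr4, chr11:82114935-82115234 (plus strand) for Ccl8 and chr11:82101595-82101894 (plus strand) for Ccl12.
Ackr3: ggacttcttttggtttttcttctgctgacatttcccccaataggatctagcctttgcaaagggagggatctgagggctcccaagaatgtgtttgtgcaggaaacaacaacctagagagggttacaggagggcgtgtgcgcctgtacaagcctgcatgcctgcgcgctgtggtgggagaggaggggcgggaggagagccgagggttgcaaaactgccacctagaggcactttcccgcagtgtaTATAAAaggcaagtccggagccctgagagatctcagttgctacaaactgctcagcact
Ackr4: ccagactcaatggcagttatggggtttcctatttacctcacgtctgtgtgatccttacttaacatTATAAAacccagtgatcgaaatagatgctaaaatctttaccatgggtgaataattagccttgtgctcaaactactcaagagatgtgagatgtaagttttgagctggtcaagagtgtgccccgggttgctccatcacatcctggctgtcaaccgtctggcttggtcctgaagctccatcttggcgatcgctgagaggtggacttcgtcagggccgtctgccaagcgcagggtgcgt
Ccl8: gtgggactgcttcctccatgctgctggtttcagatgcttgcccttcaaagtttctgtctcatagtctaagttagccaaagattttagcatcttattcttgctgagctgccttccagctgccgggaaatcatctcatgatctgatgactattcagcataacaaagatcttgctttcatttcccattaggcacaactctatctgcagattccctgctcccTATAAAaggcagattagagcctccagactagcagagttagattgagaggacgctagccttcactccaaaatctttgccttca
Ccl12: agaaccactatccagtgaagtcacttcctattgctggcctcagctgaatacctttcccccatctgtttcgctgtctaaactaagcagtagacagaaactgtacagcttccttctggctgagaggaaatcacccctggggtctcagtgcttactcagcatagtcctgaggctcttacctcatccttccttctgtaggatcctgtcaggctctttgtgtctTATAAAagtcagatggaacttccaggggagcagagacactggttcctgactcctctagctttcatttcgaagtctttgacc
The TATAAA letters began 8 bases before the start in Ackr3, 185 in Ackr4, 32 in Ccl8 and 31 in Ccl12. On either strand they occurred in 14 of 51 promoter windows of members (27.5%), which cover 44 of the 59 members, and in 13.6% of all 32851 windows in the RefSeq table. Among ligands 10 of 33 windows held them and among receptors 4 of 18. A match in these windows is a description of letters only.

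Ccl8 and Ccl12 encode chemokines that attract monocytes, and sit with Ccl2, Ccl7 and Ccl11 in one cluster on chromosome 11. Ccl8 stood at 17.0, 13.2 and 3.65 FPKM in OE 1, 2 and 3, against 3.88 in Ctrl 2, 2.41 in Ctrl 3 and 10.7 in the one labelled Ctrl 1. OE 3 thus was near Ctrl 2 and Ctrl 3, while OE 1 and OE 2 were near the library labelled Ctrl 1. The difference of 0.87 (SE 0.62, limma adjusted p = 0.615) was 1.38 (SE 0.57, limma adjusted p = 0.292) without the library labelled Ctrl 1, 1.46 without OE 3 and 0.49 without either OE 1 or Ctrl 3. Ccl12 was weak, at 1.44, 1.71 and 0.584 FPKM in OE, against 0.0795 in Ctrl 2, 0.0693 in Ctrl 3 and 1.79 in the one labelled Ctrl 1. Its difference was 0.57 (SE 0.43, limma adjusted p = 0.630), and 1.03 (SE 0.28, limma adjusted p = 0.111) without the library labelled Ctrl 1 and 0.34 without either Ctrl 2 or Ctrl 3. Ccl2, the main monocyte attractant of the cluster, stayed under 1 FPKM at 0.621, 0.797 and 0.713 in OE, against 0.465, 0.608 and 0.301 in Ctrl, and was not tested. Ccl7 and Ccl11 reached no more than 0.554 and 0.520 FPKM in any library.

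Cxcl12, the stromal ligand that holds CXCR4-bearing cells in marrow, was the most abundant member in every library. The gene is on chromosome 6 (117168535 to 117181367, plus strand), with levels of 169, 231 and 421 FPKM in OE 1, 2 and 3, against 267 in Ctrl 2, 247 in Ctrl 3 and 179 in the one labelled Ctrl 1. OE 3 was highest and OE 1 lowest, so the OE libraries spanned more than the whole Ctrl range. Its difference was 0.16 (SE 0.35, limma adjusted p = 0.883), and it took the opposite sign without OE 3, at -0.20 (SE 0.25), and without the library labelled Ctrl 1, at -0.0155. In the same libraries the marrow stroma list of 12 genes summed to 272, 268 and 436 FPKM in OE, against 277, 297 and 256 in Ctrl. The ratio of Cxcl12 to that sum was 0.623, 0.862 and 0.966 in OE, against 0.646, 0.899 and 0.966 in Ctrl. Igfbp4, at 126 to 176 FPKM, and Vcam1, at 31.8 to 126 FPKM, made up most of the sum. Vcam1 is also in the monocyte and macrophage list. Lepr of the same list stood at 11.2, 6.69 and 11.3 FPKM in OE, against 5.57, 7.26 and 7.79 in Ctrl. Of the 12 marrow stroma genes, 9 were highest in OE 3, and the part of stromal cells in the Cxcl12 level was not tested.

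Cxcl14, a ligand made by fibroblasts and epithelium, followed OE 3 as well. It stood at 14.9, 15.6 and 33.4 FPKM in OE, against 15.4, 18.1 and 12.9 in Ctrl, so OE 3 alone lay above the other 5 libraries. The difference of 0.35 (SE 0.31, limma adjusted p = 0.680) was -0.0079 without OE 3. Cxcl9 and Cxcl10, interferon-induced ligands of CXCR3, stayed between 0.871 and 2.53 FPKM. Cxcl9 averaged 1.71 ± 0.629 FPKM in OE against 1.20 ± 0.286 in Ctrl, and Cxcl10 averaged 2.13 ± 0.283 in OE against 1.98 ± 0.546 in Ctrl (SD, n = 3 each), differences within the replicate spread. Cxcl10 overlaps the more abundant Art3 on the opposite strand, so its value is less certain. Cx3cl1, a membrane-bound ligand of endothelium, averaged 1.03 ± 0.288 FPKM in OE against 0.678 ± 0.0414 in Ctrl (SD, n = 3 each) and was below the filter. Of the 8 mesenchymal members tested, 7 had a positive difference, with a median of 0.32 where all genes had -0.04, and limma called 0. Without OE 3 it was 5 of 8 with a median of 0.12, and without the library labelled Ctrl 1 it was 6 of 8 with a median of 0.26.

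**Figure D3:**
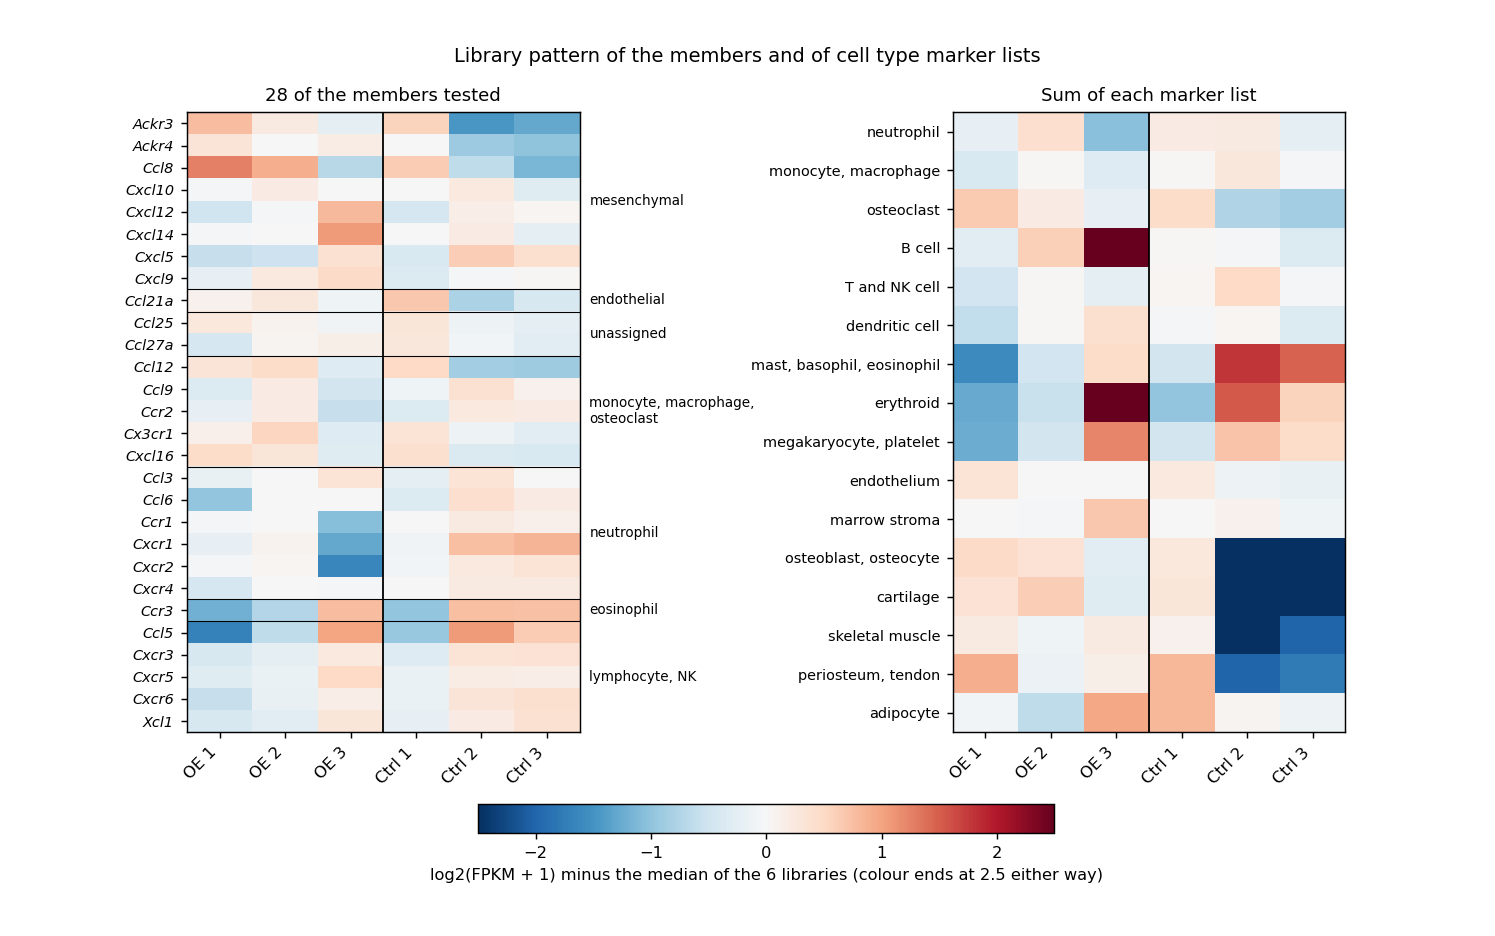
Each cell is log2(FPKM + 1) minus the median of the 6 libraries, for 28 of the 29 members tested (left, ordered by usual source cell) and for the sum of each marker list (right), with colour ending at 2.5 either way. Ackr3 and Ccl12 are low in Ctrl 2 and Ctrl 3, Cxcr2 is low in OE 3, and Ccr3 and Ccl5 are high in OE 3, Ctrl 2 and Ctrl 3.

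Receptors of the neutrophil lineage were abundant apart from Cxcr1, and all of them but Cxcr4 were lowest in OE 3. Cxcr2, which draws mature neutrophils towards CXCL1, CXCL2 and CXCL5, stood at 140.3, 149 and 45.8 FPKM in OE 1, 2 and 3, against 138, 170.4 and 183 in Ctrl 1, 2 and 3. Its neighbour on chromosome 1, Cxcr1, stood at 4.38, 5.56 and 1.57 FPKM in OE, against 4.87, 9.47 and 10.2 in Ctrl. For both genes the library labelled Ctrl 1 lay with OE 1 and OE 2, and OE 3 was far below the rest. Cxcr1 had the largest negative difference of the members, -0.97 (SE 0.41, unadjusted p = 0.0481, limma adjusted p = 0.554), and Cxcr2 had -0.72 (SE 0.45, limma adjusted p = 0.580). Without OE 3 the Cxcr1 difference was -0.57. Without OE 3 that of Cxcr2 was -0.17, and without the library labelled Ctrl 1 it was -0.83.

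Ccr1, a receptor for CCL3, CCL5, CCL6 and CCL9 on neutrophils and monocytes, stood at 64.9, 67.4 and 31.5 FPKM in OE, against 66.4, 77.8 and 73.5 in Ctrl. OE 3 was again the low library, and the difference of -0.48 (SE 0.30, limma adjusted p = 0.580) was -0.13 without it. Beside these receptors, the neutrophil marker sum in OE 3 was 0.421 of the median of the other 5 libraries, and all 20 markers were lowest in OE 3. The same ratio was 0.307 for Cxcr2, 0.283 for Cxcr1 and 0.467 for Ccr1. Per 1000 FPKM of the neutrophil list, Cxcr2 stood at 1.21, 0.837 and 0.711 in OE, against 0.905, 1.10 and 1.61 in Ctrl. On that scale Ccr1 stood at 0.562, 0.379 and 0.489 in OE, against 0.4345, 0.502 and 0.646 in Ctrl, so OE 3 lay inside the range of the others. S100a8 and S100a9 made up most of the list's sum.

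Cxcr4, the CXCL12 receptor of neutrophils, B-cell precursors and blood stem cells, was not low in OE 3. The gene is on chromosome 1 (128588199 to 128592293, minus strand), with levels of 111, 148 and 142 FPKM in OE, against 147, 172 and 172 in Ctrl. The libraries were close, with OE 1 the lowest and OE 2 just above the library labelled Ctrl 1. The difference was -0.30 (SE 0.18, limma adjusted p = 0.568), and -0.17 without OE 1. In OE 3 the Cxcr2 level was 0.323 of the Cxcr4 level, against 0.941 to 1.27 in the other 5 libraries. OE 3 was also where 12 of 12 B-cell markers were highest, with their sum at 548 FPKM against 66.7 to 130 elsewhere, and the part of those cells in the Cxcr4 level was not tested. The ratio of Cxcl12 to Cxcr4 was 1.53, 1.56 and 2.97 in OE, against 1.22, 1.55 and 1.44 in Ctrl.

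Ccl6 and Ccl9, rodent ligands of CCR1 that lie side by side on chromosome 11, had the highest CC ligand means in both groups. In OE 3 and Ctrl 2, Ccl5 was above Ccl9. Ccl6, made by neutrophils and macrophages, stood at 67.1, 135 and 134 FPKM in OE, against 106, 179 and 154 in Ctrl. Ccl9, made by macrophages and osteoclasts, stood at 22.9, 34.0 and 21.1 FPKM in OE, against 27.3, 38.8 and 31.8 in Ctrl. For each gene Ctrl 2 was the highest library, and OE and Ctrl overlapped. Ccl6 differed by -0.42 (SE 0.33, limma adjusted p = 0.646) and Ccl9 by -0.33 (SE 0.22, limma adjusted p = 0.597). The Ccl6 difference was -0.09 without OE 1, -0.26 without Ctrl 2 and -0.64 without the library labelled Ctrl 1. For Ccl9 it was -0.20 without OE 3, -0.20 without Ctrl 2 and -0.53 without OE 2. The level of Ccl6 was 2.93, 3.96 and 6.35 times that of Ccl9 in OE, against 3.88, 4.62 and 4.85 times in Ctrl. Osteoclast markers summed to 4036, 2955 and 2206 FPKM in OE, against 3507, 1525 and 1405 in Ctrl. In Ctrl 2, the highest library for Ccl9, the monocyte and macrophage list summed to 2231 FPKM, its highest value. The part of either cell type in the Ccl9 level was not tested.

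Inflammatory ligands of neutrophils and macrophages were scarce. Ccl3 and Ccl4, which attract monocytes and T cells, averaged 1.65 ± 0.499 and 0.831 ± 0.445 FPKM in OE, against 1.62 ± 0.546 and 0.668 ± 0.220 in Ctrl (SD, n = 3 each). Cxcl2, a CXCR2 ligand released by activated neutrophils, stood at 0.474, 0.570 and 0.255 FPKM in OE, against 1.90 in Ctrl 2, 1.67 in Ctrl 3 and 0.499 in the one labelled Ctrl 1. Only 2 libraries reached 1 FPKM, so it was not tested. Cxcl1 and Cxcl3 reached no more than 0.404 and 0.230 FPKM. Of the 6 neutrophil-lineage members tested, 5 had a negative difference, with a median of -0.45 where all genes had -0.04, and 0 were called. Of all genes, 43.7% were positive. Without OE 3 the median of these members was -0.26, with 6 of 6 negative, where all genes had -0.03 and 44.9% were positive.

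Monocyte receptors were led by Ccr2, which lets monocytes leave the marrow. Ccr2 stood at 61.7, 81.9 and 47.7 FPKM in OE, against 56.1, 84.7 and 82.4 in Ctrl, with a difference of -0.23 (SE 0.25, limma adjusted p = 0.744). OE 3 was lowest, the library labelled Ctrl 1 next, and the groups overlapped. The Ccr2 difference was -0.04 without OE 3, -0.42 without either OE 2 or the library labelled Ctrl 1, -0.13 without Ctrl 2 and -0.14 without Ctrl 3. Cx3cr1, the fractalkine receptor of patrolling monocytes and macrophages, stood at 6.63, 9.08 and 4.57 FPKM in OE, against 7.83, 5.39 and 4.71 in Ctrl (difference 0.14, SE 0.27, limma adjusted p = 0.863, and -0.07 without OE 2). Its annotated span also holds several other genes, among them Wdr48 and Csrnp1, so its value is less certain. Cxcl16, a membrane-bound ligand of CXCR6, stood at 2.37, 2.02 and 0.971 FPKM in OE, against 0.904 in Ctrl 2, 0.885 in Ctrl 3 and 2.22 in the one labelled Ctrl 1, low in OE 3, Ctrl 2 and Ctrl 3 as Ccl8 was. The monocyte and macrophage list summed to 1405, 1874 and 1462 FPKM in OE, against 1862, 2231 and 1796 in Ctrl. Among the 6 members of this source tested, 3 had a positive difference and 3 a negative one, with a median of 0.06 and 0 called, and the median was 0.16 without OE 3.

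Ccr3 and Ccl5 shared a library order in which OE 3, Ctrl 2 and Ctrl 3 were high. Ccr3, the eotaxin receptor of eosinophils, stood at 0.802, 1.49 and 6.06 FPKM in OE, against 5.97 in Ctrl 2, 5.86 in Ctrl 3 and 1.09 in the one labelled Ctrl 1. The difference was -0.55 (SE 0.65, limma adjusted p = 0.759). It was -1.13 without OE 3 and also without the library labelled Ctrl 1, and between -0.15 and -0.27 without OE 1, Ctrl 2 or Ctrl 3. Eosinophil, basophil and mast cell markers summed to 404, 883 and 1687 FPKM in OE, against 891, 4221 and 3404 in Ctrl. Prg2, the eosinophil major basic protein, led that sum at 264, 657 and 1339 FPKM in OE, against 652, 3512 and 2758 in Ctrl. OE 3 thus was close to Ctrl 2 and Ctrl 3 in Ccr3 while its marker sum lay below theirs.

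Ccl5, a ligand of CCR1 and CCR3 made by T cells and stored in platelets, stood at 4.94, 11.3 and 36.8 FPKM in OE, against 38.9 in Ctrl 2, 28.8 in Ctrl 3 and 8.996 in the one labelled Ctrl 1. The OE libraries alone covered most of the range, and the difference was -0.70 (SE 0.76, limma adjusted p = 0.738). Single libraries moved that value widely, to -0.08 without OE 1, -0.30 without Ctrl 2, -1.30 without the library labelled Ctrl 1 and -1.42 without OE 3. Markers of T and NK cells summed to 109, 156 and 132 FPKM in OE, against 159, 219 and 152 in Ctrl, a sum that Nkg7 led at 66.7 to 181 FPKM. Of the 15 markers measured, 10 had OE 3, Ctrl 2 and Ctrl 3 as their 3 highest libraries, as Ccl5 did. Among them was Cd3e, a T-cell receptor subunit named after its values were seen, at 0.429, 0.807 and 1.25 FPKM in OE, against 0.667, 1.89 and 2.05 in Ctrl. The megakaryocyte and platelet sum was 446, 774 and 2457 FPKM in OE, against 767, 1725 and 1445 in Ctrl, and 11 of its 12 markers had those same 3 libraries highest. Ccl5 per 1000 FPKM of that sum ran from 11.1 to 22.5 across the 6 libraries. The same 3 libraries were highest for 12 of 12 eosinophil, basophil and mast cell markers and for 13 of 14 erythroid markers. The order was thus not particular to T cells or platelets. The part of any of these cell types in the Ccl5 level was not tested.

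Cxcl5, a CXCR2 ligand, lies on chromosome 5 beside Ppbp and Pf4, the chemokine genes of platelets, whose symbols fall outside the naming rule. Cxcl5 stood at 0.398, 0.444 and 1.69 FPKM in OE, against 2.17 in Ctrl 2, 1.74 in Ctrl 3 and 0.599 in the one labelled Ctrl 1. Ppbp stood at 153, 273 and 1088 FPKM in OE, against 253, 680 and 592 in Ctrl. Pf4 stood at 106, 232 and 734 FPKM in OE, against 207, 477 and 343 in Ctrl. The 3 neighbours were thus high in the same libraries, OE 3, Ctrl 2 and Ctrl 3, with OE 3 highest for Ppbp and Pf4 and Ctrl 2 highest for Cxcl5. Cxcl5 differed by -0.45 (SE 0.36, limma adjusted p = 0.651), Ppbp by -0.38 (SE 0.74, limma adjusted p = 0.862) and Pf4 by -0.30 (SE 0.69, limma adjusted p = 0.886). Without the library labelled Ctrl 1 these were -0.75, -0.83 and -0.62 in that order, and Cxcl5 had -0.25 without Ctrl 2, -0.29 without OE 1 and -0.76 without OE 3. Erythroid markers had that order too, with sums of 1477, 2424 and 45821 FPKM in OE, against 1796, 10240.1 and 5187 in Ctrl.

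**Figure D4:**
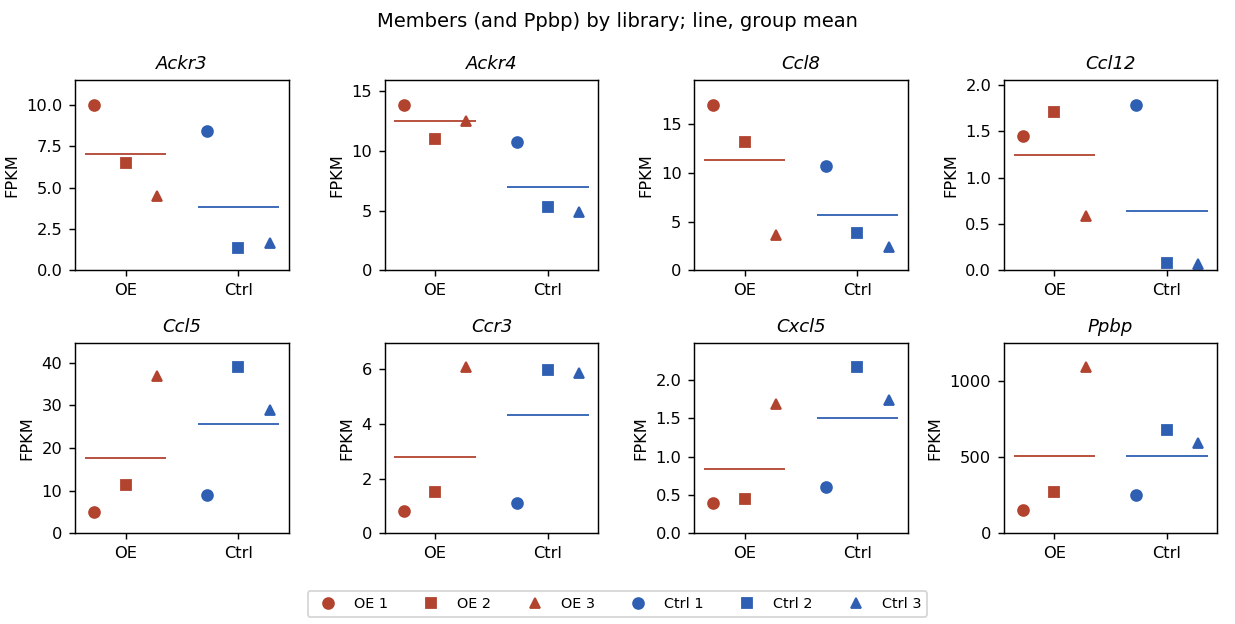
FPKM by library for 7 members and Ppbp, 1 point per library and a line at each group's mean, OE left and Ctrl right. In the upper row the library labelled Ctrl 1 lies near or inside the OE values (Ackr3 at 8.43 FPKM), and in the lower row it lies near OE 1 and OE 2 while OE 3 lies near or above Ctrl 2 and Ctrl 3 (Ccr3 at 6.06, 5.97 and 5.86 FPKM).

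Lymphocyte receptors were weak throughout. Cxcr3, a receptor of activated T and NK cells, stood at 1.09, 1.32 and 2.25 FPKM in OE, against 1.18, 2.49 and 2.54 in Ctrl. Cxcr6, of resident T and NK cells, stood at 0.215, 0.588 and 1.03 FPKM in OE, against 0.618, 1.28 and 1.40 in Ctrl. Xcl1, an NK-cell ligand, averaged 0.815 ± 0.487 FPKM in OE against 1.145 ± 0.432 in Ctrl, and Cxcr5, the receptor that guides B cells to follicles, averaged 1.03 ± 0.631 in OE against 1.06 ± 0.270 in Ctrl (SD, n = 3 each). Cxcr6 overlaps Fyco1 and Cxcr5 overlaps Bcl9l, each more abundant and on the opposite strand, so their values are less certain. All 5 tested members of this source had a negative difference, with a median of -0.26 where all genes had -0.04, and 0 were called. Of all genes, 43.7% were positive. Leaving out the library labelled Ctrl 1 gave these members a median of -0.49, and leaving out OE 3 gave them -0.46. Ccr7 and Ccr9, which guide lymphocytes and dendritic cell precursors to lymph nodes and to gut and thymus, were highest in OE 3 at 2.54 and 2.07 FPKM, against at most 1.10 and 0.901 elsewhere, and did not reach the filter. Ccr6 reached 0.567 FPKM in OE 3, Ccr10 averaged 0.803 ± 0.205 in OE against 1.07 ± 0.350 in Ctrl (SD, n = 3 each), and Ccr4 and Ccr8 stayed under 0.1.

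The ligands that ACKR4 clears were low or uncertain. Ccl21a, the lymphatic ligand of CCR7, stood at 1.89, 2.27 and 1.48 FPKM in OE, against 0.556 in Ctrl 2, 1.03 in Ctrl 3 and 3.29 in the one labelled Ctrl 1. Near-identical copies of this gene make that value uncertain, and the copy Ccl21b was listed at 0 in all 6 libraries. Ccl25, the ligand of CCR9, averaged 1.81 ± 0.355 FPKM in OE against 1.63 ± 0.548 in Ctrl (SD, n = 3 each), and overlaps the more abundant Elavl1 on the opposite strand. Ccl19 stayed between 0.127 and 0.402 FPKM. Ccl27a, a skin chemokine with the near-identical copy Ccl27b listed at 0, averaged 4.23 ± 1.04 FPKM in OE against 4.41 ± 1.03 in Ctrl (SD, n = 3 each), and overlaps Il11ra1 on the opposite strand.

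The remaining members had little RNA in these femurs. Ackr2, which clears inflammatory CC chemokines, averaged 0.900 ± 0.233 FPKM in OE against 0.829 ± 0.224 in Ctrl (SD, n = 3 each). Ccl17, Ccl22, Ccl24, Ccl28, Cxcl11, Cxcl13, Cxcl15 and Xcr1 stayed at or under 0.702 FPKM in every library. Ccl1, Ccl20, Ccl21b, Ccl26, Ccl27b and Cxcl17 were the 6 members listed at 0 throughout, and a listed 0 in these files can also be a failed estimate.

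Other genes of chemoattraction and of chemokine signalling were read from a list of 39. Limma called 0 of the 37 tested with all libraries, 8 positive and 29 negative, with a median of -0.30, and 0 without the library labelled Ctrl 1. Over all genes tested with all libraries, the median was -0.04 and 43.7% were positive. Receptors of neutrophils for other attractants shared the low OE 3. Fpr2, a formyl peptide receptor, stood at 205, 313 and 116 FPKM in OE, against 293, 326 and 243 in Ctrl, and Ltb4r1, the leukotriene B4 receptor, at 133, 157 and 73.4 in OE, against 196, 217 and 170 in Ctrl. Arrb2, the arrestin that ends receptor signalling, stood at 198, 224 and 129 FPKM in OE, against 314, 379 and 345 in Ctrl, with no overlap and a difference of -0.94 (SE 0.24, unadjusted p = 0.00594, limma adjusted p = 0.554). Grk6, a receptor kinase of leukocytes, likewise had all OE values below Ctrl, at 101, 106 and 69.7 FPKM in OE, against 120.3, 153 and 143 in Ctrl (difference -0.60, SE 0.21, limma adjusted p = 0.554). Ltb4r1, Gnai2, Gnb1, Grk2, Dock2, Pik3r5 and Mmp8 of the list also lay wholly below Ctrl, some only just. Of all genes tested, 8.97% lay that way. Dpp4, the peptidase that inactivates CXCL12, was picked after its values were seen, with 2.66, 3.07 and 8.22 FPKM in OE, against 2.01, 1.82 and 2.13 in Ctrl. All its OE values were above Ctrl, with OE 3 far above the rest, and the difference was 0.79 (SE 0.35, limma adjusted p = 0.554). OE lay wholly above Ctrl for 4.59% of all genes tested. S1pr1, which lets lymphocytes leave tissues and is also strong in endothelium, stood at 13.9, 8.58 and 12.99 FPKM in OE, against 9.80, 5.55 and 5.86 in Ctrl (difference 0.68, SE 0.26, limma adjusted p = 0.554).

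With the libraries labelled Ctrl 1 and OE 3 both left out, a comparison of 2 OE with 2 Ctrl libraries chosen after seeing the data, limma called 1388 genes, or 11.4% of those tested, 7.92% higher and 3.48% lower. It called 9 of the 29 members, or 31.0%. Higher in OE 1 and OE 2 were Ccl8 by 1.97 (SE 0.23, limma adjusted p = 0.00271), Ackr3 by 1.87, Ccl12 by 1.26, Ackr4 by 1.13 and Cxcl16 by 0.75. Lower were Ccl5 with -2.01 (SE 0.34, limma adjusted p = 0.0116), Ccr3 with -1.71, Cxcl5 with -1.05 and Cxcr1 with -0.87. The library labelled Ctrl 1 lay with OE 1 and OE 2 in Wnt7b and in the osteoblast and osteocyte sum. OE 3 lay near Ctrl 2 and Ctrl 3 in Ccl8, Ccl5, Ccr3 and Cxcl5, which are among the members called here. In Wnt7b it did not, at 0.295 FPKM against 0.00833 in Ctrl 2 and a listed 0 in Ctrl 3. Its osteoblast and osteocyte sum was 4259 FPKM against 497 and 419 there, and its Ackr4 level 12.5 against 5.32 and 4.92. Leaving out libraries that resemble the other group in some genes widens the differences of those genes, and lowers their p-values, by selection. These calls, shares and p-values therefore describe only the 4 libraries that remain. They were not used as support for a difference between the groups. Cxcl12 had -0.38 (SE 0.24, limma adjusted p = 0.441) and Cxcr4 -0.42 (SE 0.22, limma adjusted p = 0.331) there, and neither passed.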

How the data were processed

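RNA of 3 OE and 3 Ctrl femurs was sequenced, and the deposited values are FPKM per gene, with no counts. TopHat2, Cufflinks, DESeq and mm10 are named, per the submitters' processing notes, which give neither versions nor settings. The absolute depth is unknown. Symbols came from GENCODE M21 (GRCm38) for 21172 of 21606 Ensembl identifiers. The planned count test applied only to counts, so limma 3.58.1 (R 4.3.3, with a trend) was used on log2(FPKM + 1), with Benjamini-Hochberg adjustment; this scale understates changes of low genes. It was tested on simulated data. Alternatives were another pseudocount, other filters, no trend, other scalings, a replicate block and leaving out each library. Named genes were all members averaging at least 5 FPKM in either group, with weaker members by group values, and pathway genes with a median of at least 5 FPKM. Members and lists were chosen with earlier results of these data known. Ackr1, Ccl19-ps1 and Ccl19-ps3 were not analysed here, and the values of 1 tested member are not reported here. Python 3.11.15, pandas 2.3.3 and matplotlib 3.10.9 made the summaries and figures.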

Additional observations from a re-analysis of the deposited data

How the results depend on the processing

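Leaving out each library in turn moved the count of genes called by limma between 0 and 597 and the count of members called between 0 and 2, the highest of each without the library labelled Ctrl 1. Without the library labelled Ctrl 1 and OE 3 together, a comparison added after seeing the data, 1388 genes and 9 members were called. With the other settings, which were a pseudocount of 0.1, no filter, a filter of 5 FPKM, no trend, 2 other scalings and the replicate block, 0 genes and 0 members were called. Of 379 alternative values of 28 single members, 349 kept their direction and their side of the threshold, 11 passed it and 19 took the opposite sign. Leaving out single libraries gave differences from -0.045 to 0.69 for Ccl21a, -0.0039 to 0.27 for Ccl25, -0.18 to 0.12 for Ccl27a and -0.12 to 0.18 for Ccl3. The range was -0.073 to 0.35 for Cx3cr1, -0.051 to 0.22 for Cxcl10, -0.20 to 0.45 for Cxcl12, -0.0079 to 0.55 for Cxcl14 and -0.30 to 0.098 for Cxcr5. Scaling without marrow and muscle marker genes gave 0.023 for Ccl27a. Without the library labelled Ctrl 1 and OE 3, Ccl3 had -0.26, Cxcl12 -0.38 and Cxcl14 -0.0057. The cause of these reversals was not tested. With the replicate block limma called 0 genes and 0 members, and 1797 genes had an unadjusted p under 0.05. Deviations of same-numbered libraries correlated at 0.442, 0.0866 and 0.311. OE 2 correlated best with the library labelled Ctrl 1 (0.143) and OE 3 with Ctrl 2 (0.416). The main fit was planned without a covariate and did not use the pairing by number. With 3 libraries a group and no counts, a small difference was not detectable. With all 6 libraries larger ones did not pass either, such as 0.99 (SE 0.55) for Ackr3.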
